A study of Mus musculus with 8 samples.

Results

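Serpina1a, Serpina1b, Serpina1c, Serpina1d and Serpina1e, the mouse copies of the alpha-1 antitrypsin gene, were examined together with Serpina3k, Serpina3m, Serpina3n, Serpina6 and Serpina12, 10 genes of the 55487 in the deposited count table. They were picked by symbol, with the difference between the Bmal1+/+ and Bmal1-/- libraries already known, so their values in that comparison are given as a description and without a test. The libraries are labelled as stromal vascular fraction, which the paper describes as sorted from subcutaneous MC38 tumors, MC38 being a mouse colon carcinoma line. Against that label, hepatocyte transcripts were far more abundant in them than fibroblast transcripts, as given below. Tumor cells carried green fluorescent protein and intact Bmal1, and sorting was meant to remove them, so that the host cells remained. In the Bmal1-/- hosts the clock gene Bmal1 was deleted in the germline, and the Bmal1+/+ hosts were wild type. Each group had 4 libraries, and apart from the tumor no treatment is labelled. The age and sex of the mice and the time of day of collection are not given in the sources used here.

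Serpins are serine protease inhibitors that present a flexible reactive centre loop as bait, trap the protease that cleaves it, and are consumed in the process. Clade A, the Serpina genes, encodes plasma proteins made largely by hepatocytes. Alpha-1 antitrypsin is the main plasma inhibitor of neutrophil elastase. Serpina3 genes are the mouse relatives of alpha-1 antichymotrypsin, and Serpina3n is a known acute-phase gene. Serpina6 encodes corticosteroid-binding globulin, and Serpina12 encodes vaspin, an adipokine that inhibits the protease kallikrein 7. Neither the corticosteroid carrier nor the thyroxine carrier encoded by Serpina7 works as a protease inhibitor.

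Sequence is shown first because the copies of alpha-1 antitrypsin are close enough for their reads to be hard to assign. The coding sequences of Serpina1a to Serpina1e were each 1239 bases long, and pairs of them were 96.3% to 98.5% identical. Pairs among Serpina3k, Serpina3m and Serpina3n were 82.7% to 91.1% identical, and pairs between families were 52.3% to 59.4% identical. Across the 5 alpha-1 antitrypsin copies 86 of 1239 coding positions varied, or 6.9%. The window of 60 bases with the most variable positions held 18 of them, and the fullest window elsewhere held 13. This window covered codons 368 to 387, just after the serpin hinge at codon 363, and so lay in the reactive centre loop. The 5 sequences of the window are printed from the GENCODE M21 transcripts, coding strand, with the positions that vary among the copies in capitals.
Serpina1a: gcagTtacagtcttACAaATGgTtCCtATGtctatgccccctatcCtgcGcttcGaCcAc
Serpina1b: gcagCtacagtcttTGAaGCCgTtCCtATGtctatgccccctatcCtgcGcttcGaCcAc
Serpina1c: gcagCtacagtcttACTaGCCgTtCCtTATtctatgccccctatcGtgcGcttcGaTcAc
Serpina1d: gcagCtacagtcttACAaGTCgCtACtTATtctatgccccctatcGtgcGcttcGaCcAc
Serpina1e: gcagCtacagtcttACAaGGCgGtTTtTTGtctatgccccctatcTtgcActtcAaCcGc

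Serpina1e differed from all 4 other copies at 8 positions of this window, against 2 or 3 for each of the others. Over the whole coding sequence it did so at 24 positions, against 19 for Serpina1d, 17 for Serpina1b, 7 for Serpina1c and 6 for Serpina1a. Codon 374 took 4 forms among the 5 copies and codon 377 took 3. Within the coding sequence, a read can name its copy only where it covers such positions. Of all stretches of 100 bases in the transcript used for each gene, the share found in none of the other transcripts of the locus was 39.0% for Serpina1a, 41.5% for Serpina1c, 70.7% for Serpina1d, 79.4% for Serpina1b and 85.2% for Serpina1e. It was 95.1% for Serpina3k, 93.9% for Serpina3m, 99.8% for Serpina3n, and no stretch of Serpina6 or Serpina12 was shared. How reads that fit several copies were counted is not given in the sources used here, so the division of counts among the alpha-1 antitrypsin copies is uncertain, least so for Serpina1e.

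The genes lie in 1 cluster on chromosome 12 (GRCm38). Serpina6 (103646630 to 103657212) comes first, followed by Serpina1b (103728156 to 103830373), Serpina1d (103763594 to 103773592), Serpina1a (103853589 to 103863562), Serpina1c (103894926 to 103904887), Serpina1e (103946931 to 103958975) and Serpina12 (104028769 to 104044443), all on the minus strand. Serpina3k (104338486 to 104346144), Serpina3m (104338486 to 104394257) and Serpina3n (104406729 to 104414329) close it on the plus strand. The annotated Serpina1b gene spans Serpina1d and the pseudogene Gm8893, and Serpina3k lies within the span of Serpina3m on the same strand. The transcript used for each of the 10 genes had 5 exons.

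RefSeq's promoter table (GRCm38.p6, 250 bases before the annotated start) held 7 of the 10 genes. Upstream of their starts the 5 alpha-1 antitrypsin copies shared an identical run of 55 bases. The last 51 bases of each printed stretch belong to that run, which goes on for 4 bases past the print, and the closing block of 12 bases is in capitals. All are on the minus strand.
Serpina1a, chr12:103863629-103863700: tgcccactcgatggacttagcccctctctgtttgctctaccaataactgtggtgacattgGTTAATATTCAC
Serpina1b, chr12:103738204-103738275: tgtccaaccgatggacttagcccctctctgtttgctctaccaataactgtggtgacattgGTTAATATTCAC
Serpina1c, chr12:103904966-103905037: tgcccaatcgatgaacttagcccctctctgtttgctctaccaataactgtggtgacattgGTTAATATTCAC
Serpina1d, chr12:103773638-103773709: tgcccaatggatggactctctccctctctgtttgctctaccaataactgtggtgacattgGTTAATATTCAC
Serpina1e, chr12:103956964-103957035: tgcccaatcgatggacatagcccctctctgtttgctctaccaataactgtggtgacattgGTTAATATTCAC

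The block GTTAATATTCAC stood 16 to 27 bases before the annotated start of Serpina1a, Serpina1b, Serpina1c and Serpina1d and 78 bases before that of Serpina1e. Searched on both strands, it was present in 5 of 32851 promoters, or 0.0152%, and these were the 5 copies. Its first 6 letters alone, GTTAAT, were in 6.43% of all promoters and in 5 of the 7. The block was cut from the run that the 5 copies share, starting at GTTAAT. That choice fixed the presence of both in the 5 copies, and only the search of the other promoters was open. AGAACA, an arm of the glucocorticoid receptor element, was in 16.1% of all promoters and in those of the 5 copies and Serpina3n. TTCNNNGAA, the STAT pattern, was in 7.02% of all promoters and in none of the 7. CACGTG, the E-box that BMAL1 and CLOCK bind, was in 6.02% and in none of the 7, and TTATGTAA, the D-box, in 0.819% and in none. These are matches of letters within this window only. Because the 5 copies share sequence there, they do not count as 5 separate promoters beside any of these shares.

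The libraries held 14054825 to 18449143 counts, and expression is given as CPM, counts scaled to library size with TMM factors, or, where genes are compared with each other, as the authors' FPKM, which are per length. Bmal1 (Arntl in the table) stood at 2.71, 0.96, 1.01 and 1.5 CPM in Bmal1+/+ replicates 1 to 4 and at 32.7, 32.5, 35 and 30.1 CPM in the libraries labelled Bmal1-/-, higher where the label says deleted. The deleted stretch is not given in the sources used here. Dbp, a gene that BMAL1 activates, was lower in the libraries labelled Bmal1-/-, from 94.8 ± 20.7 to 4.74 ± 1.53 CPM (SD, n = 4 each, log2 fold change -4.32, edgeR adjusted p = 4.1e-06). It was named after its values were seen. Whether genotype or the unknown time of collection sets the level of either gene was not tested. Xist was at 844 to 1095 CPM in the Bmal1+/+ libraries and at most 0.749 CPM in the others, and Ddx3y, on the Y chromosome, at 0 in the Bmal1+/+ libraries and at 58.1 to 61.2 CPM in the others, so that sex and the genotype label cannot be told apart in any comparison here. Against the labelled fraction, summed CPM of 9 hepatocyte markers, Alb included, was 84432 to 95002 in Bmal1+/+ libraries and 33701 to 46144 in those labelled Bmal1-/-. That fall is Alb alone: the other 8 markers summed to 20115 to 23130 and 20957 to 28758 CPM, and the median log2 fold change of the 9 was 0.05, with 1 gene higher and 1 lower. Summed CPM of the fibroblast markers was 138 to 220 and 104 to 109, of the macrophage markers 369 to 431 and 162 to 313, and of the endothelial markers 137 to 170 and 79.6 to 115. Lymphocyte markers summed to 4.57 to 4.74 and 3.26 to 5.12 CPM and epithelial and tumor markers to 193 to 238 and 235 to 375 CPM, with Cdx2 at 0 throughout. Krt8 (means 146 and 167 CPM) and Krt18 (66.4 and 91.4 CPM) led the epithelial sum. Cdh1 was also higher in the libraries labelled Bmal1-/- (8.18 and 19.3 CPM), whereas Epcam (1.51 and 0.6 CPM), Krt19 (2.33 and 0.509 CPM) and Vil1 (0.234 and 0.017 CPM) were lower. The part of these cell mixtures in the results was not tested, and fewer cells of a type cannot be told apart from less RNA per cell. Replicate 4 of the libraries labelled Bmal1-/- stood apart: 3.78% of tested genes were over 2-fold above the mean of the other 3 libraries of its group, against 0.955% to 1.51% for the other libraries. For genes over 2-fold below that mean the highest share, 4.73%, was that of replicate 3 of the same group, with 3.57% for replicate 4 and 1.64% to 3.07% for the other 6 libraries. Fold changes that replicate 4 moves by more than 1.5 times are given with and without it. Group means, FPKM and ratios include it unless stated.

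All 10 genes passed the filter on low counts. The groups did not overlap for 6 genes that were higher in the libraries labelled Bmal1-/- (Serpina1a, Serpina1c, Serpina1e, Serpina3k, Serpina3n and Serpina12) and for Serpina6, which was lower. Among all 14353 genes tested, 16.7% did not overlap and were higher, and 16.8% did not overlap and were lower. At an adjusted p below 0.05, 14.9% of all genes were called higher and 16.2% lower. Since the comparison served to choose the genes, nothing is read from these counts. The median log2 fold change was 1.03 over the 10 genes and 0.02 over all genes tested.

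**Figure D1:**
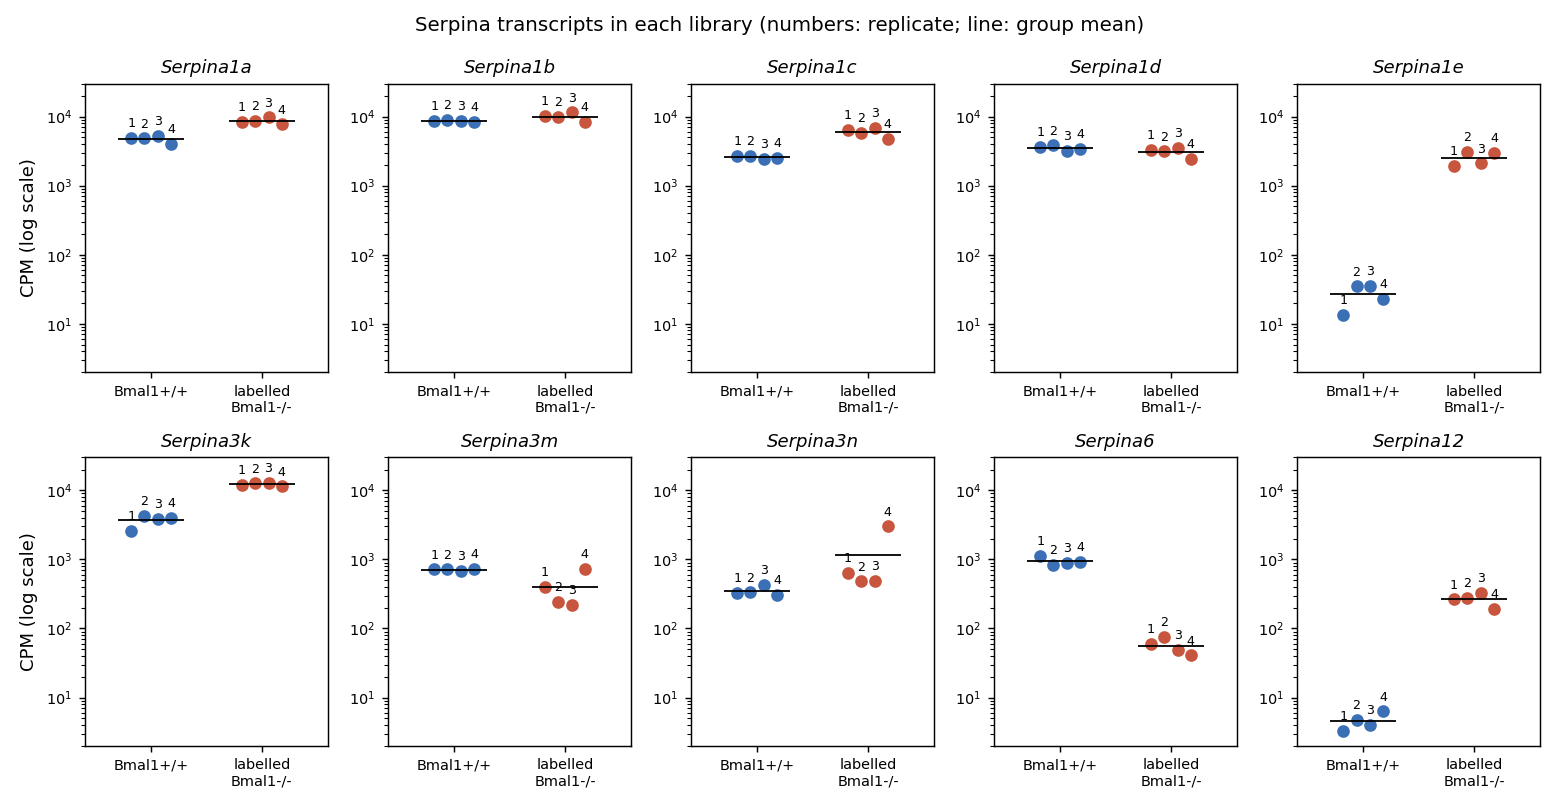
TMM-scaled CPM of each of the 10 genes (log axis) in the 4 Bmal1+/+ libraries (blue) and the 4 libraries labelled Bmal1-/- (red), with replicate numbers beside the points and a line at the group mean. Serpina1e and Serpina12 are separated by the widest gaps, Serpina6 runs the other way, and replicate 4 of Serpina3n, at 3005 CPM, lies far above the other 3 libraries of its group, at 480 to 630 CPM.

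Serpina1e was the alpha-1 antitrypsin copy that differed most. It was at 13.4, 34.8, 35.1 and 22.9 CPM in Bmal1+/+ replicates 1 to 4, and at 1943, 3059, 2098 and 2939 CPM in the libraries labelled Bmal1-/-. Every one of the latter was far above every Bmal1+/+ library. The log2 fold change was 6.56 (SE 0.37, 4 against 4), or 94.5-fold, from a mean of 26.6 ± 10.4 to 2510 ± 571 CPM (SD, n = 4 each). In FPKM it ranked 2054 among all genes in Bmal1+/+ libraries and 48 in the others.

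The Serpina1a and Serpina1c copies, which share most of their transcripts' stretches of 100 bases with other copies, were also higher, by far less. Serpina1a was at 4969, 4833, 5188 and 3985 CPM in the Bmal1+/+ libraries and at 8258, 8571, 9720 and 7713 CPM in those labelled Bmal1-/-. These groups did not overlap, and the log2 fold change was 0.85 (SE 0.16), or 1.81-fold. Serpina1c was at 2725, 2717, 2448 and 2489 CPM against 6379, 5809, 6910 and 4808 CPM. The groups again did not overlap, at a log2 fold change of 1.20 (SE 0.16), or 2.30-fold.

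Serpina1b and Serpina1d, the copies with the highest FPKM in Bmal1+/+ libraries, overlapped between groups. In CPM, Serpina1a stood above Serpina1d in those libraries. Serpina1b was at 8727, 8922, 8664 and 8411 CPM in Bmal1+/+ and at 10302, 9857, 11494 and 8454 CPM in the other group, a log2 fold change of 0.21 (SE 0.15). Replicate 4 is the library that makes Serpina1b overlap. Without it the mean of the other 3 was 10551 ± 847 CPM and the groups did not overlap, at a log2 fold change of 0.28 (SE 0.12). Serpina1d was at 3604, 3814, 3195 and 3365 CPM in Bmal1+/+ and at 3278, 3136, 3537 and 2429 CPM in the libraries labelled Bmal1-/-, a log2 fold change of -0.18 (SE 0.16). It is the only one of the 5 copies whose estimate was below 0.

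Taken as a sum, which does not depend on how counted reads were divided among the copies but can still depend on whether shared reads were kept, dropped or given to Gm8893, alpha-1 antitrypsin made up 1.94% ± 0.106 of all counts in Bmal1+/+ libraries and 3.04% ± 0.336 in those labelled Bmal1-/- (SD, n = 4 each). By library the sum was 20039, 20321, 19530 and 18272 CPM against 30159, 30431, 33760 and 26342 CPM. The groups did not overlap, and the sum fitted as 1 feature had a log2 fold change of 0.63 (SE 0.17), the ratio of the means being 1.54. Alb, the gene of serum albumin, held 6.85% ± 0.26 and 1.63% ± 0.295 of all counts in the same libraries. All 10 Serpina genes together held 2.49% ± 0.101 and 4.46% ± 0.286 of all counts.

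The make-up of the alpha-1 antitrypsin pool in FPKM differed as well. These shares depend on the gene lengths that the authors used, which are not given in the sources used here. In FPKM, Serpina1b held 32.8% ± 0.849 of the 5 copies' sum in Bmal1+/+ libraries and 23.7% ± 0.723 in those labelled Bmal1-/-, and Serpina1d held 26.5% ± 1.36 and 14.7% ± 0.913. Serpina1c moved the opposite way, from 20.2% ± 0.613 to 29.1% ± 1.81. Serpina1e went from 0.155% ± 0.0598 (0.076% to 0.208%) to 9.36% ± 2.81 (6.87% to 12.4%). Serpina1a differed least, at 20.3% ± 1.84 and 23.1% ± 0.818, with overlapping groups.

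**Figure D2:**
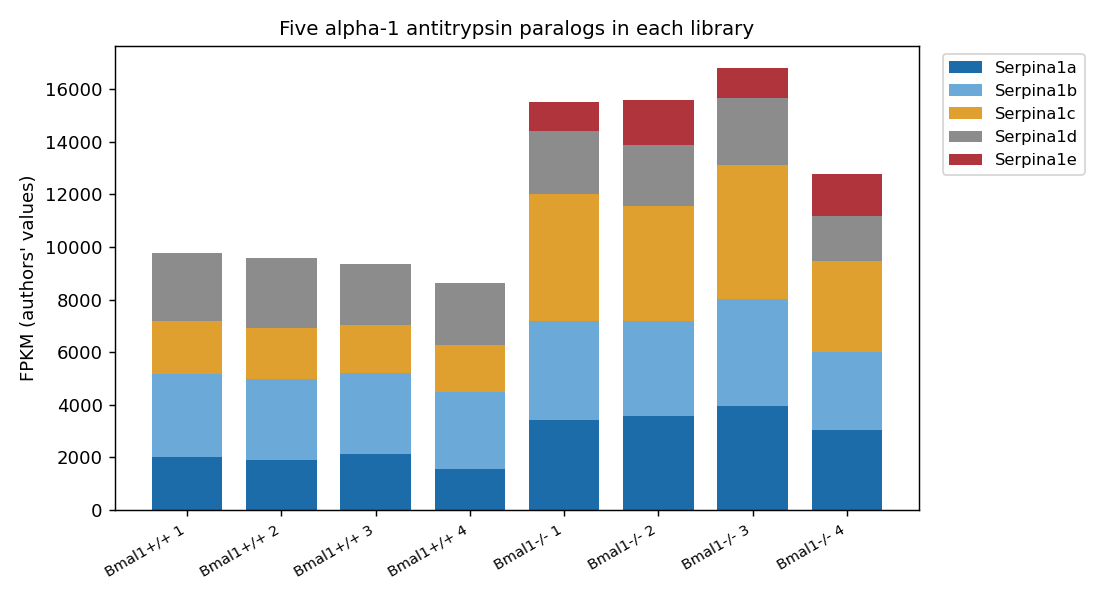
Stacked bars of the authors' FPKM for the 5 alpha-1 antitrypsin copies in each of the 8 libraries. The sum lies between 8636 and 9791 in the Bmal1+/+ libraries and between 12762 and 16809 in those labelled Bmal1-/-, where the Serpina1e segment becomes visible and the Serpina1c segment grows.

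Serpina3k, a Serpina3 gene whose protein binds tissue kallikrein, was the most abundant of the 10 in the libraries labelled Bmal1-/-. It was at 2551, 4287, 3897 and 3935 CPM in Bmal1+/+ and at 12137, 12615, 12824 and 11374 CPM in the other group. The groups were well apart, at a log2 fold change of 1.74 (SE 0.19), or 3.34-fold. Its FPKM went from 1759 ± 347 to 5998 ± 405, from rank 32 to rank 3 of all genes.

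Serpina3m shares a start and a strand with Serpina3k and moved the other way in 3 of 4 libraries. It was at 715, 717, 680 and 721 CPM in Bmal1+/+ and at 398, 240, 218 and 730 CPM in the libraries labelled Bmal1-/-. Replicate 4 stood above every Bmal1+/+ library and the other 3 below all of them, so the groups overlapped. The log2 fold change was -0.84 (SE 0.34) with all libraries and -1.31 (SE 0.20) without replicate 4, where the mean of the other 3 was 285 ± 98.3 CPM. The FPKM ratio of Serpina3k to Serpina3m was 3.89 to 6.52 in Bmal1+/+ and 17 to 64.2 in the other group. The 17 was that of replicate 4, and the next lowest was 33.2.

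Serpina3n, an inhibitor of cathepsin G and granzyme B that rises in inflammation, was at 329, 333, 430 and 302 CPM in Bmal1+/+ libraries. In those labelled Bmal1-/- it was at 630, 480, 482 and 3005 CPM. All were above the Bmal1+/+ range, but replicate 4 was 5.66 times the mean of the other 3. The log2 fold change of 1.72 (SE 0.57) therefore fell to 0.61 (SE 0.15) without that library, a 1.53-fold difference, with a mean of 531 ± 85.9 CPM.

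Serpina6, the corticosteroid carrier of plasma, was the only one of the 10 whose libraries labelled Bmal1-/- were all below the Bmal1+/+ libraries. It was at 1125, 824, 887 and 928 CPM in Bmal1+/+ and at 60.5, 74.8, 49.5 and 40.8 CPM in the other group. The lowest Bmal1+/+ library was thus far above the highest of the others, and the log2 fold change was -4.06 (SE 0.22), or 16.7-fold lower. In FPKM it went from rank 97 to rank 1243.

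Serpina12, the vaspin gene, lies beyond Serpina11 and Serpina9, as the last of the 10 genes on the minus strand. It was at 3.25, 4.8, 3.96 and 6.29 CPM in Bmal1+/+ libraries. In those labelled Bmal1-/- it was at 263, 276, 331 and 193 CPM. All were far above Bmal1+/+, with a log2 fold change of 5.85 (SE 0.26), or 57.8-fold, and a move from rank 9619 to rank 606 in FPKM. Klk7, the kallikrein that vaspin inhibits, had a count of 0 in all 8 libraries.

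Ordered by FPKM, the Bmal1+/+ libraries ran from Serpina1b (3062 ± 96.9) through Serpina1d (2478 ± 174), Serpina1a (1906 ± 239), Serpina1c (1885 ± 110), Serpina3k (1759 ± 347), Serpina6 (475 ± 72.4), Serpina3m (312 ± 6.51) and Serpina3n (167 ± 29.5) to Serpina1e (14.4 ± 5.65) and Serpina12 (1.22 ± 0.329). The libraries of Serpina1a overlapped those of Serpina1c, and those of Serpina1c overlapped Serpina3k. Within single libraries Serpina1a was above Serpina1c in replicates 1 and 3, and Serpina3k was above Serpina1c in replicates 2, 3 and 4. The other neighbours in this order did not overlap. The libraries labelled Bmal1-/- ran from Serpina3k (5998 ± 405) through Serpina1c (4430 ± 708), Serpina1b (3607 ± 482), Serpina1a (3503 ± 364), Serpina1d (2241 ± 369), Serpina1e (1392 ± 314), Serpina3n (553 ± 583), Serpina3m (177 ± 102) and Serpina12 (72.7 ± 16) to Serpina6 (29.1 ± 8.16). Ranges overlapped there between Serpina1c and Serpina1b, Serpina1b and Serpina1a, Serpina1d and Serpina1e, Serpina1e and Serpina3n, and Serpina3n and Serpina3m. Yet within every library of that group, Serpina1c was above Serpina1b, Serpina1d above Serpina1e, Serpina1e above Serpina3n and Serpina3n above Serpina3m. Serpina1b was above Serpina1a in all of them but replicate 4. Serpina3n overlapped Serpina1e only through replicate 4, at 1425 FPKM against 233 to 313 in the others. Both orders rest on the gene lengths that the authors used. In CPM, Serpina1a (8565 ± 848) stood above Serpina1c (5976 ± 899) in the libraries labelled Bmal1-/-. The transcripts used here for these genes were 1360 and 1361 bases long.

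The spread within groups also differed among the 10. In Bmal1+/+ libraries the coefficient of variation of CPM was 2.43% for Serpina1b and 2.65% for Serpina3m, and it was 39.3% for Serpina1e and 28.6% for Serpina12, which are rare there. In the libraries labelled Bmal1-/- it was 5.26% for Serpina3k and 108% for Serpina3n. The last value was 16.2% without replicate 4, close to the 16.1% of the Bmal1+/+ libraries.

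**Figure D3:**
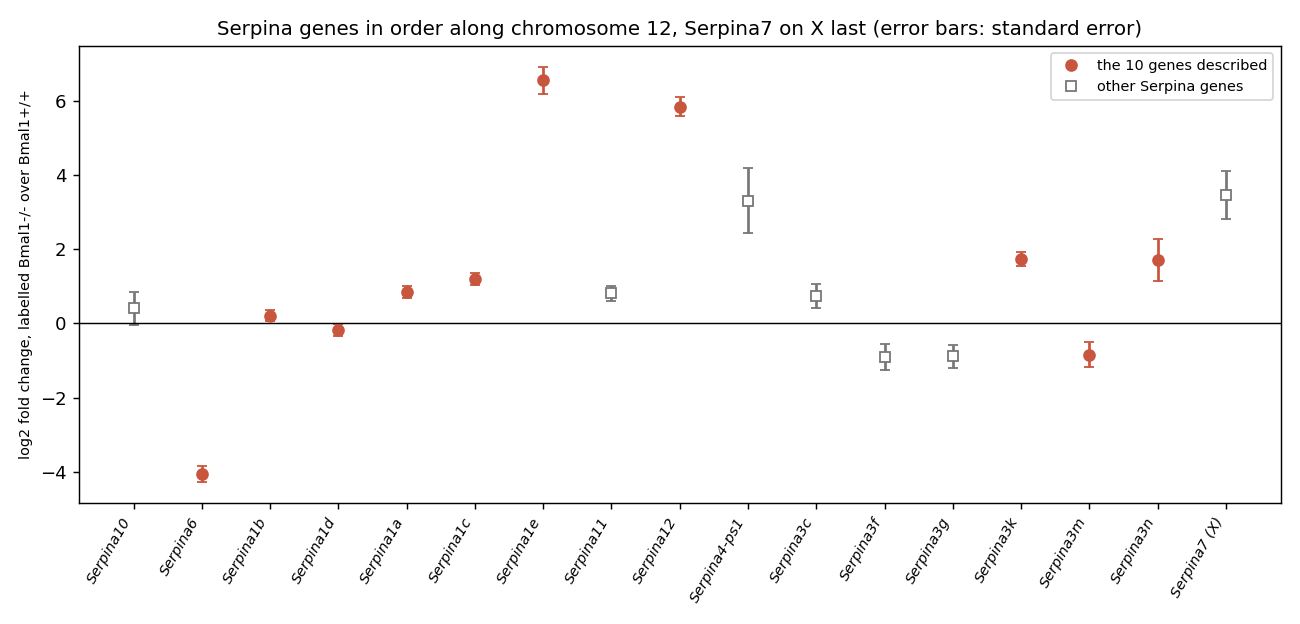
Log2 fold change (libraries labelled Bmal1-/- over Bmal1+/+) with its standard error for the 17 Serpina genes that passed the filter on low counts, in their order along chromosome 12, with Serpina7 of the X chromosome last. Neighbours differ: Serpina6 at -4.06 lies near Serpina1b at 0.21, whose groups overlapped. Serpina3m at -0.84, whose groups also overlapped, lies between Serpina3k at 1.74 and Serpina3n at 1.72. Without replicate 4 labelled Bmal1-/-, Serpina3m was at -1.31, Serpina3k at 1.78 and Serpina3n at 0.61.

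Among the 19 other Serpina genes in the table, which were not chosen, 7 passed the filter. By the quasi-likelihood test of edgeR, adjusted by Benjamini-Hochberg over all genes, 3 were higher and 1 lower in the libraries labelled Bmal1-/-, against 14.9% and 16.2% of all genes. Serpina7, the gene of thyroxine-binding globulin on the X chromosome, rose from 15.1, 5.83, 11 and 17.4 CPM to 48.8, 41.5, 168 and 291 CPM. The groups did not overlap (log2 fold change 3.47, SE 0.65, edgeR adjusted p = 0.0033, and 2.80 with adjusted p = 0.0036 without replicate 4). Serpina11, the neighbour of Serpina1e, rose from 20.6, 34.8, 31.9 and 31.3 CPM to 41, 46.1, 52.9 and 68.4 CPM (log2 fold change 0.81, SE 0.20, edgeR adjusted p = 0.012).

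Serpina4-ps1, a pseudogene, was called higher (3.31, SE 0.88, edgeR adjusted p = 0.018), but its libraries ran from 0.482 to 4.99 CPM in Bmal1+/+ and from 3.46 to 59.6 CPM in the others and overlapped. The call was lost without Bmal1+/+ replicate 4 (edgeR adjusted p = 0.055), and the estimate was 2.25 without replicate 2 labelled Bmal1-/- and 3.99 without Bmal1+/+ replicate 2. Serpina3g, an intracellular member of the family known from immune cells, was lower (log2 fold change -0.89, SE 0.30, edgeR adjusted p = 0.048), at 5.83 to 13 CPM against 3.32 to 7.12 CPM. That call was lost without any 1 of 6 libraries (Bmal1+/+ replicates 1, 3 and 4 and replicates 1, 2 and 3 labelled Bmal1-/-), with edgeR adjusted p of 0.071 to 0.13.

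Serpina3f had a log2 fold change of -0.90 (SE 0.35, edgeR adjusted p = 0.075) and Serpina3c one of 0.74 (SE 0.32, edgeR adjusted p = 0.11). Without Bmal1+/+ replicate 2 both passed, at adjusted p of 0.023 and 0.035, and 5 genes were then called higher in place of 3. Serpina10, which encodes the protein Z-dependent inhibitor of coagulation, was at 147 to 224 CPM in Bmal1+/+ and at 113, 153, 149 and 551 CPM in the other group (log2 fold change 0.41, SE 0.45, edgeR adjusted p = 0.53). Its estimate turned to -0.39 without replicate 4 (edgeR adjusted p = 0.12). The remaining 12 genes did not pass the filter. Serpina16, Serpina1f, Serpina3d-ps and Serpina3e-ps had no count in any library, and Serpina9, which lies between Serpina11 and Serpina12, was at 0 to 0.0602 CPM in Bmal1+/+ and at 0.611 to 1.39 CPM in the other group.

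Within the cluster, 2 transcripts that overlap the alpha-1 antitrypsin genes are given because they bear on the counting, and both were picked after their values were seen. Gm8893, an unprocessed pseudogene inside the annotated span of Serpina1b that shares stretches of 100 bases with all 5 copies, was at 195 to 237 CPM in Bmal1+/+ and at 217 to 243 CPM in the others, and the groups overlapped. B430119L08Rik, an antisense transcript inside Serpina1c, was at 32 to 35.4 CPM and at 59.9 to 121 CPM (log2 fold change 1.51, SE 0.19, edgeR adjusted p = 3.7e-04). Whether strand was used in counting is not given in the sources used here, so its reads and those of Serpina1c cannot be told apart.

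In replicate 4 of the libraries labelled Bmal1-/-, some of the 10 genes stood above the other 3 libraries and some below. Serpina3n and Serpina3m were higher in it than in the other 3 libraries, at 5.66 and 2.56 times their mean, and so were Serpina10, Serpina7 and Serpina11, at 3.99, 3.38 and 1.47 times. Serpina1a, Serpina1b, Serpina1c, Serpina1d, Serpina3k, Serpina6 and Serpina12 were all lower in it than in the other 3, at 0.662 to 0.908 times their mean. Serpina1e lay within their range. Of all genes tested, 28.4% were higher in replicate 4 than in the other 3. The share of all genes lower in it than in the other 3 was not computed. Nothing is therefore read from how many of the 10 were lower.

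Other acute-phase genes moved with it. The summed CPM of 20 such genes, none of them a Serpina gene, was 127081 in replicate 4, 31161 to 32985 in the other 3 and 26156 to 31204 in Bmal1+/+ libraries, and 19 of the 20 were highest in replicate 4 among the libraries labelled Bmal1-/-. Saa1, a serum amyloid gene, was at 7751 CPM in it and at 10.9 to 17.7 CPM in the other 3. Transcripts of neutrophil granule proteases, which are among the targets of alpha-1 antitrypsin and Serpina3n, were also counted in this library. Elane, neutrophil elastase, had 30 counts there and at most 1 in any other library, Prtn3, proteinase 3, had 208 counts against at most 8, and Ctsg, cathepsin G, had 5 against 0. Gzmb, granzyme B, another target of Serpina3n, went the other way. It had 15, 7, 8 and 30 counts in Bmal1+/+ and 0, 0, 2 and 2 in replicates 1 to 4 labelled Bmal1-/-. Neutrophil markers summed to 2.63 to 44.4 CPM in the libraries labelled Bmal1-/- and to 7.16 to 10.6 CPM in Bmal1+/+. Their part in the difference of replicate 4 was not tested.

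**Figure D4:**
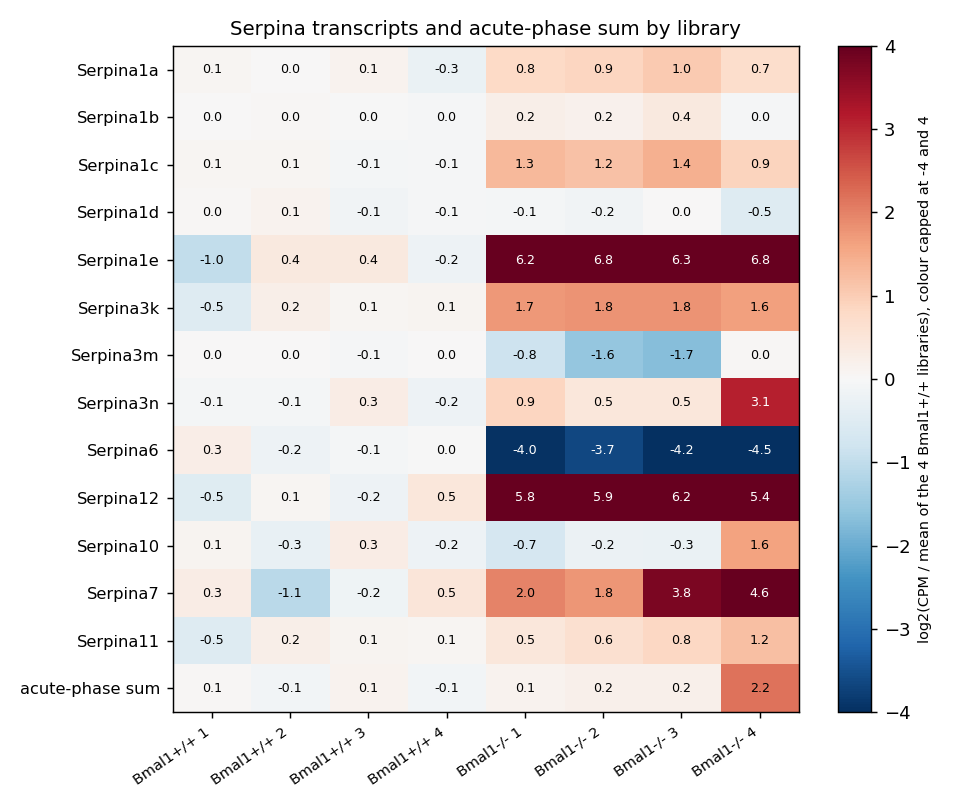
Log2 ratio of CPM to the mean of the 4 Bmal1+/+ libraries for the 10 genes, 3 other Serpina genes and the summed CPM of 20 acute-phase genes (rows) in each library (columns), with the colour scale capped at -4 and 4. Serpina3n, Serpina3m, Serpina10 and the acute-phase sum stand out in replicate 4 of the libraries labelled Bmal1-/-, while the ratios run from 6.19 to 6.85 for Serpina1e, 5.40 to 6.18 for Serpina12 and -4.53 to -3.65 for Serpina6 in the 4 libraries of that group.

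The counts of gene lists that follow stand against 14.9% of all genes higher and 16.2% lower. Of 20 acute-phase genes, which hepatocytes induce with Serpina3n, 6 were higher and 1 was lower. Their median log2 fold change was 1.17 with all libraries and -0.39 without replicate 4, against 0.02 over all genes. Itih3, a hyaluronan-binding plasma protein, rose by 1.96 (SE 0.46, edgeR adjusted p = 0.0098) and by 1.18 without replicate 4 (SE 0.13, edgeR adjusted p = 2.7e-04). Lbp, the lipopolysaccharide carrier, rose by 1.47 (SE 0.32, edgeR adjusted p = 0.0072) and Cp, ceruloplasmin, by 1.22 (SE 0.27, edgeR adjusted p = 0.0082), all on the log2 scale. Without replicate 4, 7 of the 20 were lower in place of 1, and the number higher was 3 without any 1 of Bmal1+/+ replicates 1, 2 and 4. Of 14 genes of the interleukin-6 and interleukin-1 signals that induce them, 1 was higher and 2 were lower, at or below the shares of all genes. Il1r1, the interleukin-1 receptor, rose by 2.14 (SE 0.40, edgeR adjusted p = 0.0033), while Nfkbiz changed by -1.60 (SE 0.30, edgeR adjusted p = 0.0036) and Cebpb by -0.66 (SE 0.17, edgeR adjusted p = 0.017), both nuclear factors of acute-phase induction. Without Bmal1+/+ replicate 1, 2 genes of this list were higher.

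Of 16 proteases that clade A serpins inhibit or that are close to these, 7 were tested, 4 were higher and 0 lower by edgeR, with a median of 0.65, and 0 were lower at an unadjusted p below 0.05 or by DESeq2. With no filter on low counts 1 was called lower. Cela1, an elastase of the pancreatic type, rose from 8.19, 14.1, 17 and 19.2 CPM to 62.1, 88.3, 72.6 and 26.7 CPM (log2 fold change 2.09, SE 0.36, edgeR adjusted p = 0.0023). F11, coagulation factor XI, rose by 0.89 (SE 0.21, edgeR adjusted p = 0.0094) and Tmprss6, the hepatic protease that restrains hepcidin, by 0.82 (SE 0.14, edgeR adjusted p = 0.002). Plg, plasminogen, was the fourth. Among 8 secreted serpins of other clades, 7 were tested, 1 was lower and 0 higher. That gene was Serpinh1, the collagen chaperone, at -0.86 (SE 0.19, edgeR adjusted p = 0.0088), whereas Serpinc1, antithrombin, was at 1333 to 1514 CPM and 1379 to 1553 CPM (log2 fold change 0.05, SE 0.12). At an unadjusted p below 0.05 edgeR had 1 gene of this list higher, and 1 was called higher by DESeq2, with scaling to library size alone, and without any 1 of Bmal1+/+ replicate 3 and replicates 1 and 2 labelled Bmal1-/-.

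All 10 hepatic transcription factors were tested, and by edgeR 2 were higher and 0 lower, with 0 lower also at an unadjusted p below 0.05 and by DESeq2. Prox1, a factor of hepatocyte and lymphatic development, rose by 0.70 (SE 0.16, edgeR adjusted p = 0.01). Without replicate 2 labelled Bmal1-/-, 1 factor was called lower. Of 10 genes of glucocorticoid action, relevant to the steroid that Serpina6 carries, 1 was higher and 2 were lower. Hsd11b1, which regenerates active glucocorticoid, fell from 385 to 638 CPM to 203 to 318 CPM (log2 fold change -1.04, SE 0.19, edgeR adjusted p = 0.0032). Fkbp5, a receptor co-chaperone, changed by -0.87 (SE 0.21, edgeR adjusted p = 0.013) and Klf9 by 0.51 (SE 0.12, edgeR adjusted p = 0.011), both being genes that the glucocorticoid receptor induces.

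Of 10 genes of the growth hormone axis, 2 were higher and 2 lower, near the shares of all genes. Cux2, a repressor known from female liver, was at 60.3 to 84 CPM in Bmal1+/+ and at 0.204 to 0.874 CPM in the libraries labelled Bmal1-/- (log2 fold change -7.39, SE 0.33, edgeR adjusted p = 8.5e-07, and -8.09 without replicate 1 of that group). Bcl6, a repressor more abundant in male liver, rose from 10.7 to 22.2 CPM to 67.6 to 129 CPM (2.51, SE 0.27, edgeR adjusted p = 1.4e-04). Igf1 changed by -0.65 (SE 0.19, edgeR adjusted p = 0.027), and the number of lower genes ran from 1 to 4 as single libraries were left out: it was 1, with the call of Igf1 lost, without any of Bmal1+/+ replicates 2, 3 and 4 or replicate 1 labelled Bmal1-/-, and 4 without replicate 2 of that group. Of 20 genes that fold and export secreted proteins from the endoplasmic reticulum, 7 were higher and 1 lower, with a median of 0.34. Calr, calreticulin, rose by 0.88 (SE 0.15, edgeR adjusted p = 0.0022), Uggt1, a folding sensor for glycoproteins, by 0.67 (SE 0.10, edgeR adjusted p = 0.0012) and Pdia4, a disulfide isomerase, by 0.66 (SE 0.15, edgeR adjusted p = 0.0098). The 7 became 4 without any 1 of Bmal1+/+ replicates 1, 2 and 4 or replicate 3 labelled Bmal1-/-, and the 1 lower gene was lost without any library but Bmal1+/+ replicate 3.

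The genes most like each of the 10 over the 8 libraries were found by Pearson's r of log2 CPM among 13445 tested genes of at least 1 CPM on average. The 8 points fall into the 2 groups, so a high r is mainly a like difference between groups, and it is a description only. Serpina1e was most like Cnp (0.997), Acsm2 (0.995) and C9 (0.995), and Serpina3k most like Hsd3b5 (0.997), a steroid dehydrogenase of male liver, Acsm2 (0.995) and Dirc2 (0.994). Serpina12 was most like Mad2l2 (0.999), Lpl (0.999), the lipoprotein lipase, and Npas2 (0.997), the paralog of Clock. Serpina6 was most like Gm49366 (0.997), Fmo2 (0.996) and Osbpl5 (0.996).

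For the others the values were lower or the genes of other kinds. Serpina1a was most like C130074G19Rik (0.996), Klhl22 (0.995) and Mug4-ps (0.993), the genes most like Serpina1c included Odf3b (0.992) and Atg101 (0.992), and those most like the sum of the 5 copies included Rpl19-ps11 (0.993) and Rpl30 (0.992). Serpina1b was most like Cox4i1 (0.993), Wsb2 (0.987) and Parp16 (0.985), and Serpina1d most like Ptgr2 (0.961), Acsl1 (0.96) and Slc25a5 (0.952). Serpina3m was most like Lst1 (0.986), Brca1 (0.985) and Fcgr4 (0.984), and Serpina3n most like Fndc3b (0.984), Tnip2 (0.984) and Mid1 (0.979). Among the 10 themselves, r was 0.99 for Serpina1e with Serpina3k and with Serpina12, -0.99 for Serpina1e with Serpina6, 0.06 for Serpina3m with Serpina3n and -0.91 for Serpina1d with Serpina3n.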

How the data were processed

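RNA described as coming from the sorted stromal vascular fraction of MC38 tumors was sequenced in 4 Bmal1+/+ and 4 Bmal1-/- libraries. The authors deposited gene counts and FPKM, both per Ensembl gene on GRCm38. Per the study's methods, paired reads were aligned with HISAT2 and fragments counted with StringTie, while the submitters' processing notes name TopHat2 2.0.6 and CASAVA 1.8, so the aligner is unsettled. FPKM deposited by the authors were proportional to counts over library totals within 1% for 100% of 8009 genes with enough counts. Strand use and the treatment of reads that fit several genes are not given in the sources used here.

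Counts were fitted as deposited with edgeR 4.0.16 in R 4.3.3 (TMM, filterByExpr, quasi-likelihood test, prior count 0.125, all 8 libraries, no covariate), with Benjamini-Hochberg adjusted p below 0.05 over 14353 genes. The fit was tested on simulated data. Totals were 14783346 to 18449143 counts (Bmal1+/+) and 14054825 to 15624815 (labelled Bmal1-/-). Symbols and coordinates came from GENCODE M21 (99.5% of identifiers matched), coding sequences from its transcripts, and promoters from RefSeq, read with Biopython 1.88. Entries for Serpina3k, Serpina3m and Serpina6 were not in the promoter table. For each gene the transcript with the shortest full-length coding sequence was used and, among transcripts of equal coding length, the longest.

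The members and gene lists were chosen with earlier results of these data known. Named genes were the 10 members, every other Serpina gene passing the filter, up to 3 called genes per list with the largest log2 fold change at 1 CPM or more on average, and the 3 genes most correlated with each member or with the sum of Serpina1a to Serpina1e. A few genes that this rule selects are not reported here. Dbp, Plg, Serpinc1, Saa1, the neutrophil proteases, Gzmb, Klk7 and the single epithelial markers were named after their values were seen. Alternatives were DESeq2 1.42.0, other scalings, filters and prior counts, a replicate block and leaving out each library. The hepatocyte marker sum without Alb was added after seeing the data.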

Additional observations from a re-analysis of the deposited data

Results flagged for a closer look

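The values of 34 groups of 4 libraries were examined for a library far from the other 3 by Dixon's ratio of gap to range at its 95% critical value, and 3 stood out. Chance alone marks about 1 in 20 groups. Serpina3n stood at 3005 CPM in replicate 4 labelled Bmal1-/-, above the other 3 by 0.941 of the group's range. Serpina10 stood at 551 CPM in the same library, above the other 3 by 0.909 of the range. Serpina3m stood at 680 CPM in Bmal1+/+ replicate 3, below the other 3 by 0.857 of a narrow range that ended at 721 CPM.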

How the results depend on the processing

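Over 15 alternatives for each of the 10 members, 149 of 150 fold changes stayed within the spread between replicates and 0 changed direction. The exception was Serpina3n, at 0.61 to 1.98 as single libraries were left out, the lowest without replicate 4 labelled Bmal1-/-. The spread was the SD of log2 CPM pooled over the groups. Leaving out 1 library mostly moves a group mean by only part of that SD, so the count of 149 says little about robustness. Serpina3m, counted as within the spread, ran from -1.31 to -0.65. Of the other Serpina genes, 2 were lower with DESeq2 in place of 1, and leaving out single libraries gave 0 to 2 lower (main 1) and 3 to 5 higher (main 3). Serpina10 ran from -0.39, without replicate 4, to 0.65. The lists other than cell markers had 9 genes lower, and 7 to 15 with single libraries left out, the most without replicate 4. The cause was not tested. The median of all genes was 0.01 to 0.05 under every setting. Same-numbered libraries did not pair (r of deviations from group means -0.06, 0.06, 0.04 and 0.04). With the replicate number as a block 2064 genes were lower and 1809 higher, against 2322 and 2135 without it, and in these lists the block left 3 acute-phase genes higher in place of 6, 1 interleukin-signal gene lower in place of 2 and 0 genes of protein folding lower in place of 1. Depth limits only the rarest transcripts, such as Serpina9 and the neutrophil proteases.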
